A study of Homo sapiens with 6 samples.

Results

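The genes described here are the translation initiation and elongation factors of the human A549 line, which derives from a lung adenocarcinoma, taken as the protein-coding genes of the deposited count table whose symbols begin with EIF1 to EIF6 or with EEF1 or EEF2. The rule used names only and found 71 genes among the 30230 of the table, of which 17075 were protein-coding. Besides the factors themselves it took in the kinases and methyltransferases that act on them, the eIF4E-binding proteins and 2 readthrough genes, EEF1E1-BLOC1S5 and EEF1AKMT4-ECE2. Polyadenylated RNA was sequenced in 6 libraries, 3 from control cells (NC) and 3 after silencing of FSCN1 (siFSCN1), which encodes fascin, a protein that bundles actin filaments. By the methods of the study, NC cells were given a siRNA of scrambled sequence and siFSCN1 cells 1 of the FSCN1 siRNAs it had designed, whereas the label of the NC samples names a control plasmid. Because 1 siRNA sequence was used, loss of FSCN1 and any other effect of that siRNA cannot be told apart in these libraries. The study calls the libraries biological replicates, and nothing further states which cultures they came from.

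Protein synthesis starts when eIF2 brings the initiator tRNA to the small ribosomal subunit, where eIF1, eIF1A, eIF5 and the multi-subunit eIF3 hold the complex ready for messenger RNA. The eIF4 proteins recognise the cap and unwind the leader of the message, eIF5B joins the large subunit, and eIF2B recharges eIF2 with GTP for another round. During elongation eEF1A delivers aminoacyl-tRNA, the eEF1B complex recharges eEF1A, eEF2 moves the ribosome along the message, and eIF5A, which carries the modified residue hypusine, relieves stalled ribosomes. Many messages of this machinery begin with a 5′ terminal oligopyrimidine tract, a C followed by a run of C and T, through which mTORC1 signalling controls their translation.

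The libraries held between 27967301 and 36560919 counts. FSCN1 itself stood at 211, 220 and 212 CPM (counts scaled to library size) in NC replicates 1, 2 and 3 and at 18.3, 11.8 and 13.2 CPM in siFSCN1, a log2 fold change of -3.89 ± 0.094 (SE, edgeR adjusted p = 8.1e-16). Of the epithelial markers, KRT8 lay between 4580 and 8360 CPM and KRT18 between 3500 and 7070 CPM, with the lowest values of both in siFSCN1. KRT19 was at 38.7 to 43.1 CPM in NC and 19.4 to 24.7 CPM in siFSCN1, whereas EPCAM went from 7.96 to 9.62 CPM up to 12.1 to 12.8 CPM and CDH1 from 64.9 to 67.7 CPM up to 188 to 197 CPM. The epithelial markers thus moved in both directions with the groups, and their part in the results was not tested. The leukocyte gene PTPRC and the endothelial gene PECAM1 stayed at or below 0.258 CPM, the fibroblast gene COL1A1 lay between 2.32 and 4.07 CPM, and the alveolar genes SFTPC and NKX2-1 were at or below 0.356 CPM, so these markers of the alveolar epithelium were near absent. In bulk RNA, fewer cells of a kind and less RNA per cell cannot be told apart.

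Most translation factor messages were lower when FSCN1 was silenced, usually by a modest amount. Of the 71 genes, 68 had enough counts to be tested, and the other 3, EIF2S3B, EIF4EBP3 and EEF1AKMT4-ECE2, had at most 5 counts in any library. Of the tested genes 52 (76.5%) fell and 6 (8.82%) rose at an edgeR adjusted p under 0.05, while 10 did not pass. Among all 17076 genes tested, 33.2% were called lower and 35.1% higher, and among the 13606 protein-coding genes 38.0% and 34.1%. The median log2 fold change of the tested factors was -0.34, against 0.03 over all genes tested and -0.02 over protein-coding genes. A fall of at least 2-fold was found for 7 of the 68 (10.3%), against 4.85% of all genes tested and 5.01% of protein-coding genes, namely EIF5AL1, EIF5A, EIF2B5, EIF4E2, EIF3C, EIF3CL and EIF6. This count includes near-identical copies, EIF5AL1 beside EIF5A and EIF3CL beside EIF3C. With such copies and readthrough pairs left out it was 4 of 62 (6.45%), near the protein-coding share. With their rows summed it was 5 of 65. No factor rose by 2-fold, a change called for 11.7% of all genes tested and 8.34% of protein-coding genes. The CPM of the 3 siFSCN1 libraries lay wholly below those of NC for 54 factors and wholly above for 6, against 34.4% and 36.8% of all genes tested and 39.2% and 35.5% of protein-coding genes.

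Translation factors are among the more abundant messages, and abundant messages as a class were mostly lower in siFSCN1. Of the 2984 protein-coding genes tested with a mean of at least 10 FPKM, a level scaled by exon length and by depth, 66.5% were called lower, 19.3% higher, 6.33% lower by at least 2-fold, 1.61% higher by at least 2-fold, and 66.7% lay wholly below NC, with a median log2 fold change of -0.28. In the 41 factors at this level, 36 (87.8%) fell, 3 rose, 3 fell by at least 2-fold, 37 lay wholly below NC, and the median was -0.35. No test compared these sets, and individual members lay on both sides of the median.

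**Figure D1:**
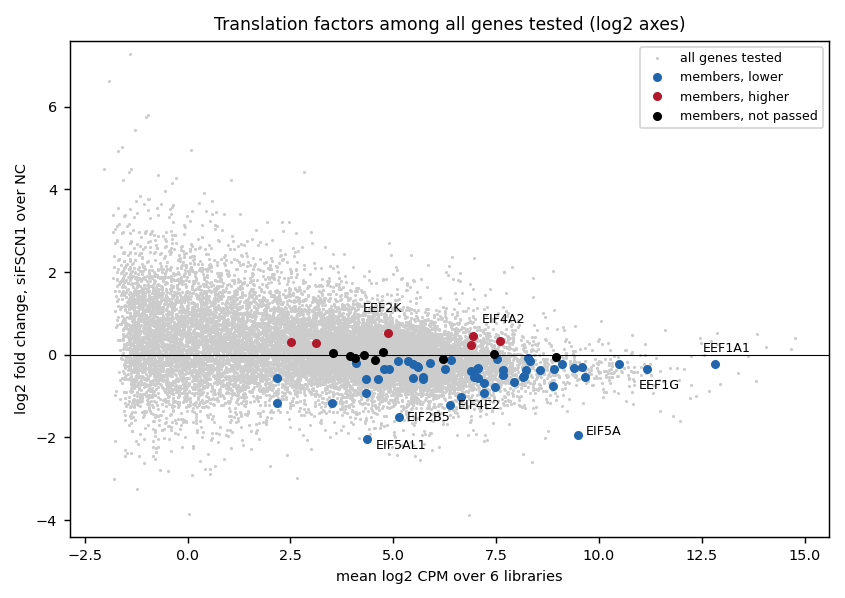
Log2 fold change of siFSCN1 over NC (vertical axis) against mean log2 CPM over the 6 libraries (horizontal axis) for all 17076 genes tested (grey) and for the translation factors, coloured by whether they fell, rose or did not pass at an adjusted p under 0.05. The factors sit mostly at the abundant end with small negative values, EIF5A lies far below genes of like abundance, and EEF2K and EIF4A2 lie above 0.

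The scale of these values rests on how libraries are set against each other. With library totals in place of TMM scaling the median of all genes moved from 0.03 to 0.22 and that of the factors from -0.34 to -0.15, and 39 factors were called lower and 11 higher. Changes are therefore read relative to the median of all genes, and members whose log2 fold change lay near 0 changed sign with the scaling. Some calls near the threshold also rested on single libraries. The calls of EIF1B, EIF3H, EIF2A, EEF1E1, EEF1AKMT2 and EEF1AKMT3 were lost without NC replicate 3 (edgeR adjusted p = 0.0887, 0.0746, 0.0507, 0.194, 0.0542 and 0.0938), that of EIF4E without NC replicate 1 (0.0515) and that of EIF2S2 without NC replicate 2 (0.123). Leaving out siFSCN1 replicate 2 ended the calls of EIF1B, EIF3H, EIF2S2, EEF1E1 and EEF1AKMT2 (adjusted p = 0.0512, 0.0661, 0.0836, 0.0587 and 0.0571), and leaving out siFSCN1 replicate 3 those of EIF1B, EIF3H, EEF1AKMT2 and EEF1AKMT3 (0.0552, 0.0508, 0.119 and 0.0602). EEF1E1 and EEF1AKMT3 were not called without siFSCN1 replicate 1 (0.104 and 0.0782), nor EEF1AKMT2 without NC replicate 1 (0.17) and EEF1AKMT3 without NC replicate 2 (0.0582).

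**Figure D2:**
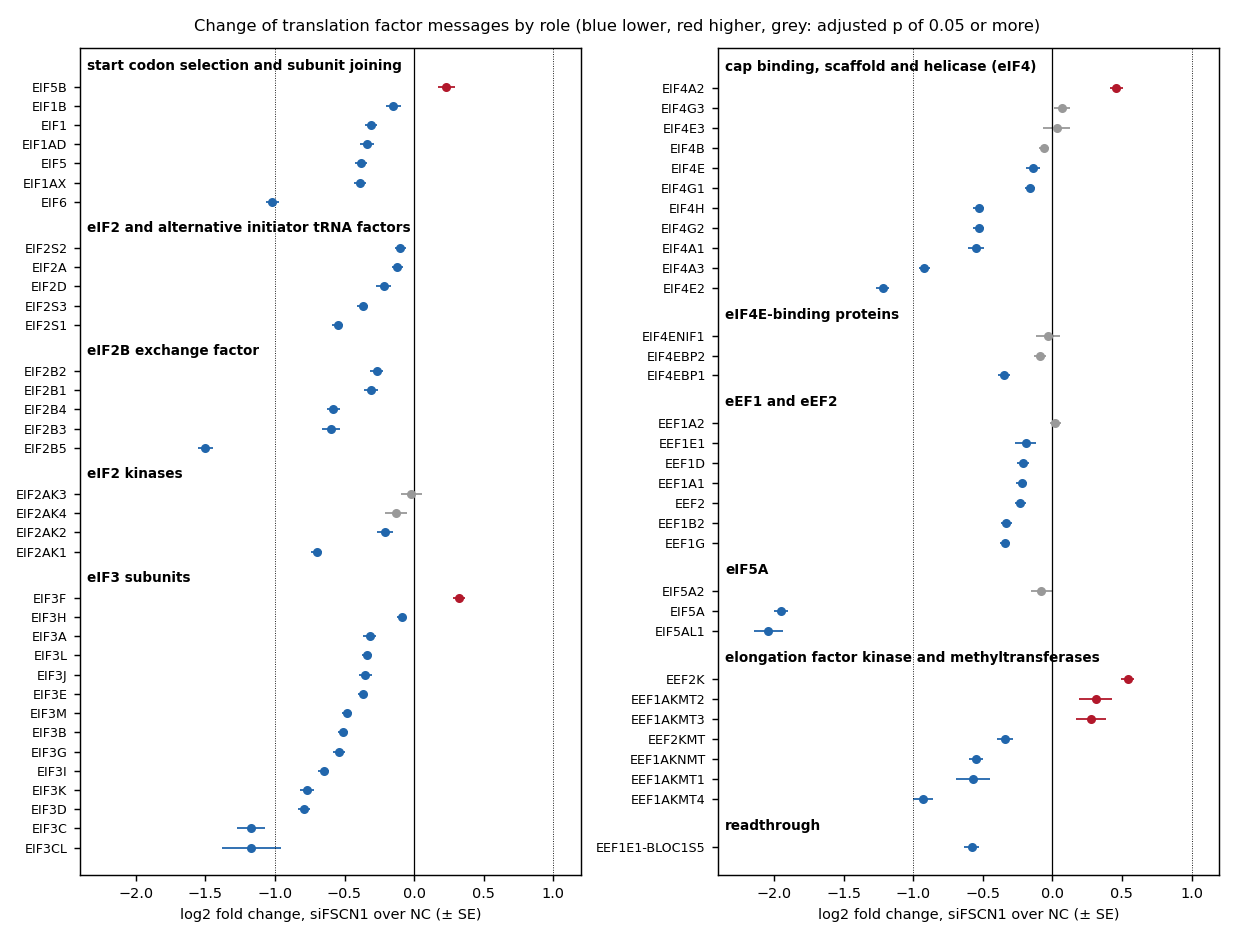
Log2 fold change of siFSCN1 over NC (horizontal axis, points, with bars of 1 SE) for the tested translation factors other than EIF1AY, grouped by role, in 6 libraries; blue points fell, red points rose and grey points did not pass at an edgeR adjusted p under 0.05. All 5 subunits of eIF2B and 13 of 14 eIF3 genes lie left of 0, EIF5A and EIF5AL1 lie farthest left, and EEF2K lies farthest right.

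The deepest fall among abundant factors was that of EIF5A (ENSG00000132507, GRCh38 chr17:7306999-7312463, plus strand), the gene of the main form of eIF5A. It stood at 1139, 1138 and 1145 CPM in NC and at 328, 283 and 277 CPM in siFSCN1, so that the lowest NC library was well over the highest siFSCN1 library. The log2 fold change was -1.95 ± 0.052 (SE, edgeR adjusted p = 1.94e-15), leaving 26.0% of the NC level. On the deposited FPKM scale, which takes gene length into account, EIF5A went from 338 ± 3.98 to 98.4 ± 10.5 (SD, n = 3 each). EIF5AL1, an intronless copy of EIF5A on chromosome 10, was listed at 34.6, 32.6 and 33.5 CPM in NC and at 10.5, 7.14 and 6.83 CPM in siFSCN1, a log2 fold change of -2.04 ± 0.105 (SE, edgeR adjusted p = 7.36e-12). In both genes replicate 1 was the highest of the siFSCN1 libraries. EIF5A2, the paralogue that has its own gene on chromosome 3, was at 17.1, 17.6 and 17.2 CPM in NC and at 16.3, 17.3 and 15.4 CPM in siFSCN1, with overlapping groups and a log2 fold change of -0.08 ± 0.074 (SE, edgeR adjusted p = 0.317) that turned to 0.10 with library totals.

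The coding sequences of these 3 genes are shown because reads of EIF5A and EIF5AL1 are hard to separate, whereas those of EIF5A2 are not. Their first 90 coding bases, from GENCODE v44, are printed with the bases that differ from EIF5A in capitals.
EIF5A: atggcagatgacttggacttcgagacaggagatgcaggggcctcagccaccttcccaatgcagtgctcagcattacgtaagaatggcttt
EIF5AL1: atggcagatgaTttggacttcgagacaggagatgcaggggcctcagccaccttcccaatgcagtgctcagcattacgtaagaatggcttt
EIF5A2: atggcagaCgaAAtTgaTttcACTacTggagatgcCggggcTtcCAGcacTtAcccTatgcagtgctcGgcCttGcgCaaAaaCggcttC
In this stretch EIF5AL1 differed from EIF5A at 1 base and EIF5A2 at 24. Over the whole coding sequence EIF5AL1 differed at 5 of 465 bases (98.9% identity), with an identical run of 192 bases, whereas EIF5A2 was identical at 71.6% of aligned bases and shared no run over 14 bases. Only uniquely mapped reads were counted, so a read inside a shared run would be assigned to neither gene, and how reads were split between EIF5A and EIF5AL1 was not tested. The processed pseudogene EIF5AP4, which is at few counts, moved with them, with a log2 fold change of -2.33 (edgeR adjusted p = 1.11e-05). Adding EIF5AL1 and the pseudogenes to EIF5A before the fit left its log2 fold change at -1.95. The EIF5A gene also overlaps exons of GPS2 on the opposite strand over 241 bases, and whether the counting used strand was not stated.

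**Figure D3:**
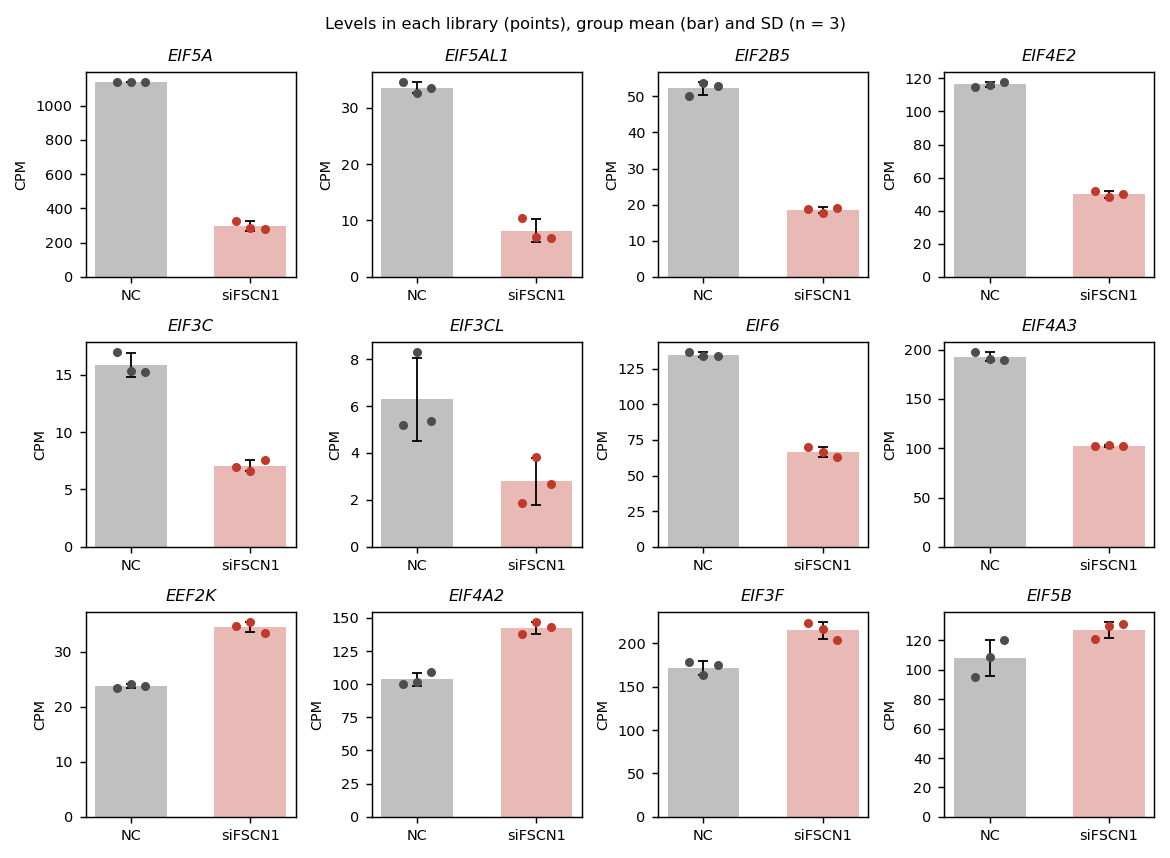
CPM in each library (points), the group mean (bars, from 0) and SD (error bars, n = 3) for 8 factors that fell and 4 that rose. In all 12 panels the 3 NC points and the 3 siFSCN1 points do not overlap, and the 2 groups of EIF5B lie closest together.

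All 5 subunits of eIF2B, the exchange factor that reloads eIF2 with GTP and that is the target of the integrated stress response, fell. For comparison, 38.0% of protein-coding genes tested were called lower, and 66.5% of those at a mean of at least 10 FPKM. EIF2B5 (GRCh38 chr3:184135038-184146127), which encodes the catalytic epsilon subunit, was at 50.1, 53.7 and 52.8 CPM in NC and at 18.7, 17.6 and 19.2 CPM in siFSCN1, with a wide gap between the groups. Its log2 fold change was -1.50 ± 0.055 (SE, edgeR adjusted p = 7.29e-14). The gamma subunit EIF2B3 fell by 0.60, the delta subunit EIF2B4 by 0.58, the alpha subunit EIF2B1 by 0.31 and the beta subunit EIF2B2 by 0.27 on the log2 scale. The subunits of this complex therefore did not fall by the same amount, and EIF2B2 lost its call when library totals were used (-0.08, edgeR adjusted p = 0.144).

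Falls were also found in the substrate eIF2. EIF2S1, its alpha subunit and the site of stress-induced phosphorylation, fell by 0.55 on the log2 scale, from 158 ± 7.47 to 108 ± 1.18 CPM (SD, n = 3 each). The gamma subunit EIF2S3 fell by 0.37. The beta subunit EIF2S2 had a log2 fold change of -0.10 (edgeR adjusted p = 0.033) that turned to 0.09 with library totals (adjusted p = 0.0473), so its direction depends on the scaling. EIF2D, which can place tRNA on ribosomes without eIF2, had -0.22, a call lost with library totals (-0.03, edgeR adjusted p = 0.625). EIF2A, an alternative initiator tRNA factor, had -0.12, which turned to 0.07 with library totals.

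Of the 4 kinases that phosphorylate eIF2 alpha, 2 fell and 2 did not pass. EIF2AK1, the heme-regulated kinase HRI, which also relays mitochondrial stress, fell from 183, 181 and 182 CPM to 113, 109 and 115 CPM, with groups far apart and a log2 fold change of -0.70 ± 0.039 (SE, edgeR adjusted p = 2.02e-11). Its exons overlap those of AIMP2 on the opposite strand over 532 bases. EIF2AK2, the double-stranded RNA sensor PKR, was at -0.21 (edgeR adjusted p = 0.00234), and this call was lost with library totals (-0.02). EIF2AK3, the endoplasmic reticulum kinase PERK, was at -0.02 (adjusted p = 0.862) and EIF2AK4, the amino acid sensor GCN2, at -0.13 (adjusted p = 0.132), and both sets of libraries overlapped between groups. With library totals they turned to 0.17 and 0.05.

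The 14 genes of eIF3, the scaffold that binds the small ribosomal subunit, gave 13 falls (92.9%) and 1 rise. Falls made up 38.0% of protein-coding genes tested and 66.5% of those at a mean of at least 10 FPKM. EIF3D, a subunit that can itself bind the cap of selected messages, was at 225, 234 and 218 CPM in NC and at 135, 132 and 125 CPM in siFSCN1, a log2 fold change of -0.79 ± 0.042 (SE, edgeR adjusted p = 1.02e-11). EIF3K, one of the peripheral subunits, fell by 0.77 and its partner EIF3L by 0.34. The core subunits EIF3I, EIF3G and EIF3B fell by 0.65, 0.54 and 0.51, and EIF3A, the largest subunit, by 0.32. EIF3M fell by 0.48, EIF3E by 0.37 and the loosely bound EIF3J by 0.35. EIF3H was at -0.09 (edgeR adjusted p = 0.0294), within a range that crossed 0, since it turned to 0.10 with library totals (edgeR adjusted p = 0.0159).

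EIF3F (GRCh38 chr11:7970251-8001862) went the other way. It stood at 178, 163 and 175 CPM in NC and at 224, 217 and 204 CPM in siFSCN1, with every siFSCN1 library above every NC library and a log2 fold change of 0.32 ± 0.044 (SE, edgeR adjusted p = 3.55e-06). In the complex EIF3F sits in a module with EIF3H and EIF3M, which were at -0.09 and -0.48. The log2 fold change of EIF3F was between 0.27 and 0.51 under 16 alternatives. Its pseudogene EIF3FP3 was at 0.21 (edgeR adjusted p = 0.375).

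**Figure D4:**
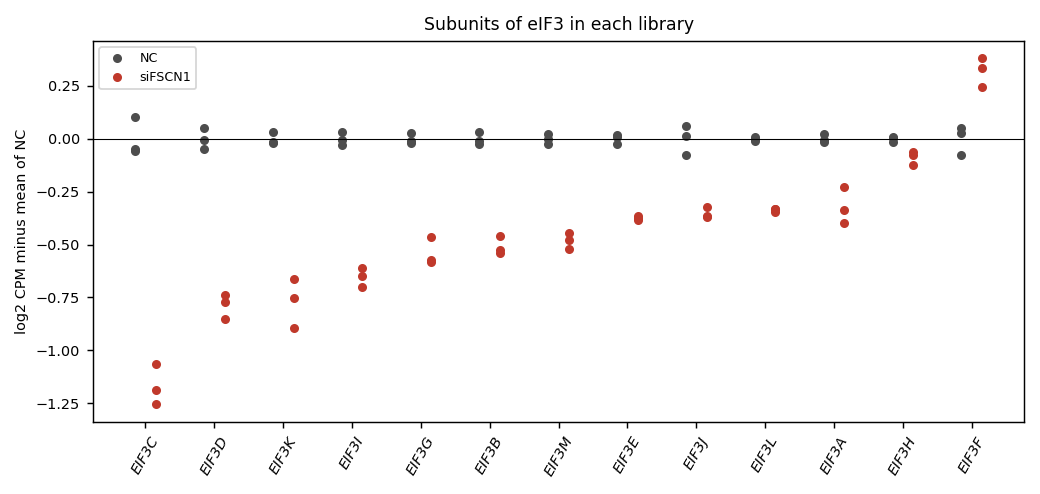
Log2 CPM of 13 eIF3 subunits in each library minus the mean of the NC libraries (vertical axis), with NC in grey and siFSCN1 in red; EIF3CL is left out because its coding sequence is that of EIF3C. In 11 of the subunits the siFSCN1 points lie clearly below the NC points, EIF3H lies just below them and EIF3F lies above.

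EIF3C had the largest fall among the subunits, but its value rests on few reads. The gene is duplicated on chromosome 16 as EIF3CL, and over 2742 aligned coding bases the copies were identical, so that unique reads can come only from outside the shared sequence. EIF3C was listed at 17.0, 15.3 and 15.2 CPM in NC and at 6.95, 6.62 and 7.56 CPM in siFSCN1, a log2 fold change of -1.17 ± 0.102 (SE, edgeR adjusted p = 9.75e-09). EIF3CL was at 5.19, 8.32 and 5.35 CPM in NC and at 1.86, 3.83 and 2.68 CPM in siFSCN1, a log2 fold change of -1.17 ± 0.21 (SE, edgeR adjusted p = 8.37e-05), with replicate 2 the highest in both groups. Summed, the pair again gave -1.17. With limma on log2(FPKM + 1) the 2 values lay far closer to 0, the smallest falls over the alternatives being -0.56 for EIF3C and -0.54 for EIF3CL. Without EIF3C and EIF3CL, 11 of 12 subunits fell and the median log2 fold change was -0.43.

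Among the eIF4 proteins, which bind the cap and unwind the leader, 7 of 11 fell, 1 rose and 3 did not pass. The 63.6% that fell stood beside 38.0% of protein-coding genes tested and 66.5% of those at a mean of at least 10 FPKM. EIF4E2 (4EHP), a cap-binding homologue that takes part in repressing messages, was at 115, 116 and 118 CPM in NC and at 52.1, 48.0 and 49.9 CPM in siFSCN1. The 2 groups were narrow and far apart, and the log2 fold change was -1.22 ± 0.046 (SE, edgeR adjusted p = 1.2e-13). EIF4E, the main cap-binding protein, was at 43.4, 43.4 and 41.4 CPM in NC and at 37.7, 38.7 and 39.8 CPM in siFSCN1, a log2 fold change of -0.14 (edgeR adjusted p = 0.0186) that turned to 0.04 with library totals. EIF4E3, the third homologue, was at 11.1, 12.5 and 10.6 CPM in NC and at 11.4, 11.8 and 11.7 CPM in siFSCN1 and did not pass (0.03, adjusted p = 0.794).

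The DEAD-box helicases split. EIF4A3, a core protein of the exon junction complex rather than an initiation factor, fell from 198, 191 and 190 CPM to 102, 103 and 102 CPM, a log2 fold change of -0.92 ± 0.038 (SE, edgeR adjusted p = 4.33e-13). EIF4A2, the paralogue of the main helicase that also works with the CCR4-NOT complex, rose from 100, 102 and 109 CPM to 138, 147 and 143 CPM, a log2 fold change of 0.46 ± 0.044 (SE, edgeR adjusted p = 3.94e-08) and 137% of the NC level. EIF4A1, the main initiation helicase, was listed at 51.0, 54.7 and 53.5 CPM in NC and at 37.3, 37.7 and 33.6 CPM in siFSCN1, a log2 fold change of -0.55 ± 0.056 (SE, edgeR adjusted p = 6.93e-08). Most reads from this locus were in another row, however. The annotated readthrough gene SENP3-EIF4A1, whose exons overlap those of EIF4A1 on the same strand, held 29570, 26844 and 33917 counts in NC and 22187, 20480 and 20844 in siFSCN1, while EIF4A1 held 1475, 1441, 1833, 1282, 1241 and 1142. SENP3-EIF4A1 had a log2 fold change of -0.69 (edgeR adjusted p = 1.06e-11), and the sum of both rows -0.68, so the direction did not depend on the row.

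Of the scaffold and helper proteins, EIF4G2 (DAP5), which lacks the part that binds eIF4E, fell by 0.53 on the log2 scale and EIF4H, a helper of the helicase, likewise by 0.53. EIF4G1, the main scaffold, was at 337, 340 and 332 CPM in NC and at 298, 300 and 304 CPM in siFSCN1, a log2 fold change of -0.16 (edgeR adjusted p = 0.000465) that turned to 0.03 with library totals. Its paralogue EIF4G3 was at 26.6, 25.7 and 26.0 CPM in NC and at 25.8, 26.9 and 29.7 CPM in siFSCN1, with 1 siFSCN1 library inside the NC range and no call (0.07, adjusted p = 0.264), although library totals gave a rise of 0.26 (edgeR adjusted p = 0.000818). EIF4B, a second helper, was at -0.06 (adjusted p = 0.132), which became 0.13 with library totals (edgeR adjusted p = 0.0037).

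Of the eIF4E-binding proteins, which hold eIF4E away from the scaffold when mTORC1 is inactive, EIF4EBP1 fell from 154, 146 and 147 CPM to 122, 116 and 110 CPM, a log2 fold change of -0.35 ± 0.044 (SE, edgeR adjusted p = 1.12e-06). EIF4EBP2 was at 77.8, 75.7 and 74.2 CPM in NC and at 69.5, 72.7 and 71.4 CPM in siFSCN1. Its groups did not overlap, yet the log2 fold change of -0.09 did not pass (edgeR adjusted p = 0.0816) and became 0.10 with library totals. EIF4ENIF1, the shuttling protein 4E-T, was at -0.03 (adjusted p = 0.804), which became 0.16 with library totals.

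The 8 genes grouped under start codon selection and subunit joining gave 6 falls (75.0%) and 1 rise, the remaining gene, EIF1AY, not passing. Beside this, 38.0% of protein-coding genes tested fell, and 66.5% of those at a mean of at least 10 FPKM. EIF1AD was placed in this group, and its part in these steps was not examined. EIF6, which keeps the large subunit from joining too early and acts in its assembly, was at 137, 134 and 134 CPM in NC and at 70.2, 66.9 and 63.1 CPM in siFSCN1, a log2 fold change of -1.02 ± 0.046 (SE, edgeR adjusted p = 1.14e-12). EIF6 was close to the 2-fold limit, with 49.3% of the NC level, and ranged from -1.07 to -0.83 over the alternatives. EIF1AX, which encodes eIF1A, EIF5, which triggers GTP hydrolysis by eIF2, and EIF1AD fell by 0.39, 0.38 and 0.34, and EIF1 fell by 0.31. EIF1, which guards start codon choice, was at 859, 833 and 857 CPM in NC and at 720, 685 and 653 CPM in siFSCN1. Its paralogue EIF1B was at 34.7, 35.8 and 38.5 CPM in NC and at 34.1, 31.9 and 32.0 CPM in siFSCN1, a log2 fold change of -0.15 (edgeR adjusted p = 0.0185) that became 0.03 with library totals. EIF5B, the GTPase of subunit joining, rose from 95.4, 109 and 120 CPM to 121, 130 and 131 CPM. The lowest siFSCN1 library of EIF5B was barely above the highest NC library, and the log2 fold change was 0.23 ± 0.061 (SE, edgeR adjusted p = 0.0026). The gene overlaps exons of REV1 on the opposite strand over 852 bases.

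The eEF1 and eEF2 genes other than EEF1A2 fell by small amounts, and several of these calls depended on the scaling. EEF1A1, the most abundant factor in counts, was at 7941, 7956 and 7673 CPM in NC and at 6696, 6702 and 6770 CPM in siFSCN1, a log2 fold change of -0.22 ± 0.04 (SE, edgeR adjusted p = 7.24e-05). Per length, EEF1G had the highest level, at 776 ± 12.8 FPKM in NC and 688 ± 27.2 in siFSCN1, ahead of EEF1A1 at 620 ± 8.63 and 596 ± 8.01 FPKM (SD, n = 3 each), whose annotated exons span 10063 bases. Another annotated gene on the same strand overlaps 2632 of the 2639 exonic bases of EEF1G, and how reads were split was not tested. EEF1G and EEF1B2, subunits of the exchange complex, fell by 0.34 and 0.33, and EEF1D, another subunit, by 0.21. EEF2, the translocase, was at -0.23 and EEF1E1, a protein of the tRNA synthetase complex, at -0.19. The calls of EEF1A1, EEF2, EEF1D and EEF1E1 were lost with library totals, where the log2 fold changes of EEF1A1 and EEF2 were both -0.04. EEF1A2, the form of eEF1A typical of muscle and neurons, was at 174, 177 and 165 CPM in NC and at 177, 178 and 170 CPM in siFSCN1, with no call (0.02, edgeR adjusted p = 0.656), although library totals gave a rise of 0.21 (edgeR adjusted p = 9.87e-05).

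The share of all counts that the 71 genes took needs no scaling factor between libraries, though it depends on what it is a share of. It was 2.28%, 2.30% and 2.24% in NC and 2.03%, 2.03% and 2.05% in siFSCN1, lower in 3 of 3 silenced libraries and 0.894 of the NC value. The exact two-sided permutation p was 0.1, the smallest that 3 against 3 libraries can give. EEF1A1 alone took 0.736% ± 0.0157 in NC and 0.717% ± 0.0133 in siFSCN1 (SD, n = 3 each, exact permutation p = 0.2), and without EEF1A1 and EEF1G the share went from 1.30% to 1.10%. As a share of nuclear protein-coding counts the 71 genes went from 2.62% to 2.48%, a ratio of 0.946, and as a share of summed FPKM from 1.21% to 0.985%, a ratio of 0.815.

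The enzymes that modify elongation factors went in both directions, with 4 falls (57.1%) and 3 rises (42.9%) among 7. Of protein-coding genes tested, 38.0% were called lower and 34.1% higher. EEF2K, the kinase that inactivates eEF2 and thereby slows elongation, showed the largest rise of the 68 genes tested. It stood at 23.4, 24.1 and 23.8 CPM in NC and at 34.7, 35.3 and 33.4 CPM in siFSCN1, and the groups were narrow and did not overlap. Its log2 fold change was 0.54 ± 0.05 (SE, edgeR adjusted p = 2.32e-08), or 145% of the NC level, and ran from 0.51 to 0.72 under the alternatives. Among the lysine methyltransferases of eEF1A, EEF1AKMT4 fell from 24.4, 28.3 and 27.4 CPM to 13.5, 13.5 and 14.9 CPM, a log2 fold change of -0.93 ± 0.07 (SE, edgeR adjusted p = 1.3e-09), with groups that did not overlap. EEF1AKMT1 fell by 0.57, and the gene of the dual enzyme EEF1AKNMT, which also modifies the first residue of eEF1A, fell by 0.55. EEF2KMT, which methylates eEF2, fell by 0.34. EEF1AKMT2 and EEF1AKMT3 rose by 0.31 and 0.28, at under 10 CPM in every library, and DESeq2 called neither (adjusted p = 0.131 and 0.0965). EEF1E1-BLOC1S5, which shares exons with EEF1E1, fell by 0.58, and the sum of both rows by 0.42.

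Ratios between paralogues within a library need no scaling either, and 8 pairs were compared. The log2 ratio of EIF5A to EIF5A2 counts was 6.06, 6.01 and 6.05 in NC and 4.33, 4.03 and 4.17 in siFSCN1, a difference of -1.86. That of EIF4A1 to EIF4A2 was -0.98, -0.90 and -1.02 in NC and -1.88, -1.96 and -2.09 in siFSCN1, a difference of -1.01. When SENP3-EIF4A1 was counted with EIF4A1, the difference was -1.14. EIF4E moved against EIF4E2 in the opposite sense, from -1.40, -1.41 and -1.52 to -0.47, -0.31 and -0.33, a difference of 1.07. The other 5 pairs shifted by far less. The differences were -0.26 for EIF4EBP1 over EIF4EBP2, -0.25 for EEF1A1 over EEF1A2, -0.23 for EIF4G1 over EIF4G3, -0.18 for EIF4E over EIF4E3 and -0.16 for EIF1 over EIF1B. In all 8 pairs the 3 siFSCN1 ratios lay outside the 3 NC ratios, and each exact two-sided permutation p was 0.1, the smallest this design allows (0.1 after Benjamini-Hochberg adjustment over the 8 pairs). Separation was common, as the CPM of 34.4% of all genes tested lay wholly below NC and of 36.8% wholly above. Ratios of other gene pairs were not compared.

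**Figure D5:**
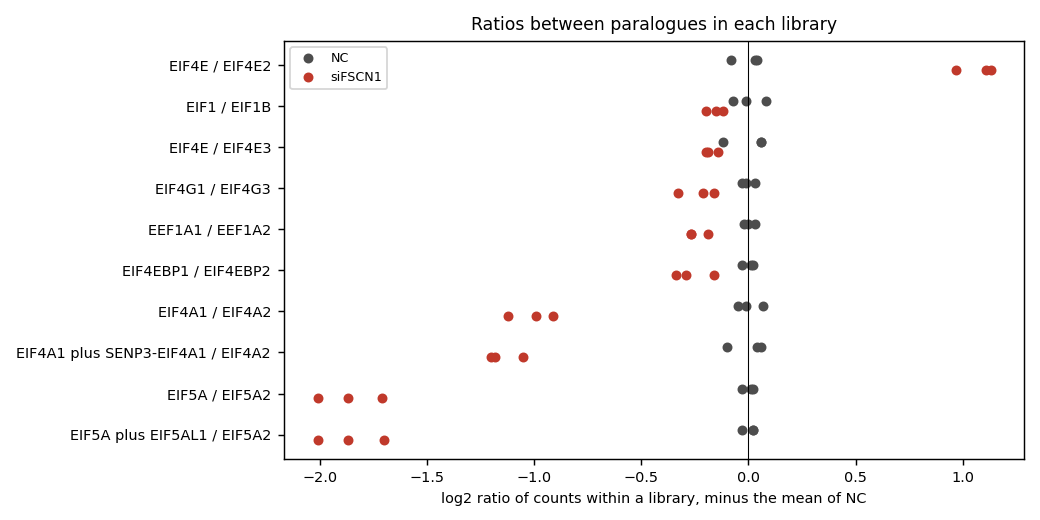
Log2 ratio of the counts of paralogues within each library, minus the mean of the NC libraries (horizontal axis), for 8 pairs and for 2 of them with readthrough or copied rows added, with NC in grey and siFSCN1 in red. The ratios to EIF5A2 and EIF4A2 moved left by 1 log2 unit or more, the ratio of EIF4E to EIF4E2 moved right, and the others shifted by at most 0.26.

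The start of the message is where the 5′ oligopyrimidine tract would lie, and the annotated starts were searched for a C followed by at least 4 bases that were each C or T, on the gene's own strand. Of 56 factors with a promoter entry in RefSeq (GRCh38.p14), 13 (23.2%) held such a tract at an annotated start, against 5.14% of 27305 genes with an entry. The windows of 8 of them, 10 bases before the start and 20 from it, are shown because they span falls, rises and no call, with the tract in capitals.
EEF1A1 (chr6:73521013-73521042, minus strand): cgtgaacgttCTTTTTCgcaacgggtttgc
EEF2 (chr19:3985444-3985473, minus strand): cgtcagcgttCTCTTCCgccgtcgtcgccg
EEF1B2 (chr2:206159885-206159914, plus strand): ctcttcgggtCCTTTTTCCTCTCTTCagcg
EIF3D (chr22:36529147-36529176, minus strand): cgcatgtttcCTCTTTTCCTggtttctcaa
EIF3K (chr19:38619178-38619207, plus strand): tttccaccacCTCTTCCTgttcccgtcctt
EIF3F (chr11:7987327-7987356, plus strand): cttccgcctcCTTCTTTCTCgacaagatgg
EIF4A2 (chr3:186783567-186783596, plus strand): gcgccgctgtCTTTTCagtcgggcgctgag
EIF4B (chr12:53006446-53006475, plus strand): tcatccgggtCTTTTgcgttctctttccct
EIF3D and EIF3K, with the tract, had log2 fold changes of -0.79 and -0.77, while EIF3F and EIF4A2, also with it, had 0.32 and 0.46. Of the 12 tested factors with a tract 9 fell, 2 rose and 1 did not pass, with a median of -0.22. Of the 41 tested factors whose annotated starts lacked it 30 fell, 3 rose and 8 did not pass, with a median of -0.34. Most factors thus fell with or without a tract, and no test compared them. Of protein-coding genes tested 38.0% fell, and of those at a mean of at least 10 FPKM 66.5%. Among 10 factors listed from general knowledge as carrying the tract (EEF1A1, EEF1A2, EEF1B2, EEF1D, EEF1G, EEF2, EIF3E, EIF3F, EIF3H and EIF4B) 7 fell, 1 rose and 2 did not pass, and the median was -0.22. The search bore out only part of that list. EEF1G had no tract at its annotated start, and EEF1A2, EEF1D, EIF3E and EIF3H had no promoter entry. A tract at an annotated start describes these letters only, and the starts in use in these cells were not measured.

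Other genes of the translation pathway were mixed, with 23 falls, 14 rises and 12 without a call among 49 tested of 50 listed, and a median of -0.12, beside 33.2% lower and 35.1% higher among all genes tested. The balance depended on the scaling, with 18 lower, 21 higher and a median of 0.07 under library totals. In termination, recycling and rescue 6 of 8 fell, led by ABCE1, the ribosome recycling ATPase, from 103, 114 and 107 CPM to 42.4, 43.1 and 46.5 CPM (log2 fold change -1.29, edgeR adjusted p = 2.49e-13), while GSPT2, a form of the release factor eRF3, rose by 0.27. Of the subunits and regulators of the phosphatase that removes phosphate from eIF2 alpha 4 of 5 fell, namely PPP1R15B, its constitutive targeting subunit (-1.38), PPP1CA (-0.99), the stress-induced subunit PPP1R15A (-0.60) and PPP1CC (-0.49), and PPP1CB rose by 0.16.

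Partners of the initiation complex gave 4 falls, 1 rise and 4 without a call among 9, with PDCD4, an inhibitor of the eIF4A helicase, at -1.05 and LARP1, which binds oligopyrimidine messages, at -0.88. PABPC1, the poly(A)-binding protein, rose by 0.12. In the mTORC1, S6K and MNK list 3 of 11 (27.3%) fell and 4 (36.4%) rose, near the 33.2% and 35.1% of all genes tested. RPTOR, the mTORC1 scaffold, was lowest at -1.09, MKNK2, a kinase of eIF4E, highest at 0.58, and MTOR itself was at 0.48.

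The enzymes of hypusine and diphthamide, modified residues of eIF5A and eEF2, gave 3 falls and 3 rises among 8. Each was 37.5%, near the 33.2% lower and 35.1% higher among all genes tested. DOHH, which completes hypusine on eIF5A, fell by 0.64. DHPS, which starts it, had the largest value, 1.08, but was listed at only 12 to 65 counts a library, so its level is uncertain. DPH3 rose by 0.68. Mitochondrial factors gave 3 falls and 4 rises among 8 tested of 9, with MTRF1, a release factor homologue, at 0.87 and TUFM, the mitochondrial counterpart of eEF1A, at -0.46.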

How the data were processed

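The authors trimmed reads with the FASTX Toolkit, aligned them to GRCh38 with HISAT2 (the processing notes name TopHat2) and kept uniquely mapped reads, from which they deposited raw counts per gene and FPKM. The methods of the study name a stranded library kit, whereas the labels name a different kit. The counting program and annotation release are not given in the sources used here. Groups and replicate numbers came from titles. Counts of 17076 genes kept by filterByExpr were scaled by TMM and compared over 3 NC and 3 siFSCN1 libraries with edgeR 4.0.16 (quasi-likelihood test, R 4.3.3, no covariate, Benjamini-Hochberg over all genes tested), where the authors used DESeq2. A gene was called at an adjusted p under 0.05, or also at a 2-fold change. CPM are TMM-scaled, except those of cell type markers, which used library totals. Positions, lengths and coding sequences came from GENCODE v44 and start windows from RefSeq. Shares and ratios were compared by exact two-sided permutation tests. P-values measure only the spread between these libraries.

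The members and lists were chosen with earlier results of these data known. Values in every library are given for the 6 largest falls, and the rises (EIF4A2, EIF3F and EIF5B), at a mean of at least 5 FPKM in one group, 2-fold changes and paralogue pairs, and for a few further members and the pathway genes named, which were picked after their values were seen. Alternatives were RLE, upper quartile and library-total scaling, DESeq2 1.42.0, genes kept from 1 count upward, genes kept only with 10 counts on average and at least 1 CPM in 3 libraries (the stricter filter), limma 3.58.1 on log2(FPKM + 0.1) and log2(FPKM + 1), the replicate number as a block, each library left out and, chosen after seeing the data, near-identical or readthrough rows summed. Libraries of one number did not deviate together (correlations of -0.0347, 0.0398 and -0.0841), so the reported fit did not pair them. With 3 libraries a group, these correlations cannot exclude a shared culture or day. The edgeR, DESeq2 and limma fits, but not the permutation tests, were run first on simulated counts. Those counts had few changed genes, as many higher as lower. In these data most genes were called, so the simulation cannot speak to the choice of scaling.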

Additional observations from a re-analysis of the deposited data

How the results depend on the processing

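Of 67 tested members other than the Y-linked EIF1AY, whose values are not shown, 42 kept direction and side of the threshold under every alternative run, which were 16, or 15 for EIF5AL1, EIF3CL and EEF1E1-BLOC1S5, rows that summing removes. Between 39 (library totals; either limma fit) and 54 (DESeq2) members were lower. Library totals gave 11 higher members and 4 lower by at least 2-fold, limma on log2(FPKM + 0.1) 4 and limma on log2(FPKM + 1) 3 of the latter. Pathway genes were 24 lower and 9 higher with DESeq2, 20 lower and 19 higher with upper quartile scaling, 18 lower and 21 higher with library totals, and 17 lower and 19 or 18 higher with limma at + 0.1 or + 1. Leaving out 1 library gave 48 to 52 members lower, 4 to 5 higher, 6 to 8 lower by at least 2-fold, and 23 to 25 lower and 11 to 13 higher pathway genes. The share of counts was then 0.888 to 0.90 of its NC value. With the replicate block 52 members were lower, 6 higher and 7 lower by at least 2-fold, no member's call changed, and the smallest exact p was 0.25. Upper quartile scaling, library totals and DESeq2 put the median of all genes at 0.15, 0.22 and 0.11.

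Some log2 fold changes near 0 changed sign. With library totals, limma at + 0.1 and limma at + 1, EIF4G1 gave 0.03, 0.00484 and 0.0047, EIF1B 0.03, 0.01 and 0.01, EIF4E 0.04, 0.02 and 0.02, EIF2AK4 0.05, 0.03 and 0.02, and EIF2A 0.07, 0.05 and 0.04. With upper quartile scaling and then those 3, EIF2S2 gave 0.02, 0.09, 0.07 and 0.07, EIF4EBP2 0.03, 0.10, 0.07 and 0.07, EIF3H 0.03, 0.10, 0.07 and 0.07, EIF5A2 0.03, 0.10, 0.08 and 0.06, EIF4B 0.06, 0.13, 0.10 and 0.10, EIF4ENIF1 0.09, 0.16, 0.14 and 0.10, and EIF2AK3 0.10, 0.17, 0.13 and 0.07. The stricter filter gave 0.00352 for EIF4ENIF1 and 0.01 for EIF2AK3, and DESeq2 -0.008 for EEF1A2. In the other direction, EEF1A2 and EIF4G3, without a call in the reported fit, were called higher under library totals (0.21 and 0.26), upper quartile scaling (0.14 and 0.19), limma at + 0.1 (0.19 and 0.22) and limma at + 1 (0.18 and 0.16). Without 1 library, EIF4ENIF1 ran from -0.10 to 0.03 (above 0 without NC replicate 3), EIF2AK3 from -0.07 to 0.04 (above 0 without NC replicate 2 or siFSCN1 replicate 1), EEF1A2 from -0.02 to 0.03 (below 0 without NC replicate 3 or siFSCN1 replicate 1) and EIF4E3 from -0.03 to 0.09 (below 0 without NC replicate 3). Upper quartile scaling and library totals shift every gene alike by construction, and the cause of the other changes was not tested. Depth was not varied, and EIF3CL and EIF1B-AS1 rest on few counts.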

Other observations

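Some noncoding neighbours of translation factor genes were higher in siFSCN1 where the factors were not. EIF2AK3-DT, a divergent transcript beside the PERK gene, was at 17, 16 and 9 counts in NC and at 115, 109 and 127 counts in siFSCN1, a log2 fold change of 2.86 (edgeR adjusted p = 7.98e-09), while EIF2AK3 itself was at -0.02. EIF3J-DT was at 107, 78 and 124 counts in NC and at 222, 249 and 214 counts in siFSCN1 (0.97, edgeR adjusted p = 2.67e-06), whereas EIF3J fell by 0.35. EIF1B-AS1, antisense to EIF1B by its name, was at 2, 8 and 17 counts in NC. In siFSCN1 it was at 33, 46 and 44 counts (2.01, edgeR adjusted p = 0.000246). All 3 were read at low counts, and these genes were picked after their values were seen. EIF2B5-DT, beside EIF2B5, did not rise, at 5, 1 and 5 counts in NC and 0, 3 and 3 in siFSCN1. Among all genes tested 35.1% were called higher and 11.7% higher by at least 2-fold, a limit that EIF3J-DT, at 1.96-fold, did not reach. Among protein-coding genes tested the shares were 34.1% and 8.34%. Such rises were therefore more frequent among genes that are not protein-coding. Among pseudogenes, EEF1A1P5 was at -0.49 (edgeR adjusted p = 8.96e-06) beside -0.22 for EEF1A1.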
